A study of Homo sapiens with 24 samples.

Results

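The better expressed ZNF genes of 3 human breast cancer cell lines were lower after 3 h with BETd-246, a degrader of BET proteins. In each line 249 to 269 of the 294 genes had fallen with this degrader, against 32.4% to 33.7% of all genes. The summed level of the 294 genes stood at 57.2% to 61.3% of the controls. The BET inhibitor BETi-211, given at 1000 nM against 100 nM of the degrader, lowered fewer ZNF genes. It lowered 165 to 177 in each line, against 30.9% to 32.5% of all genes. A set of genes led by ZNF280C, ZNF844 and ZNF92 was higher with the inhibitor and lower with the degrader. In all, the inhibitor raised 46 to 54 of the 294 genes in each line, against 14.9% to 21.3% of all genes. That share was near the share of all genes. The genes were chosen by name and by their level in controls: those whose symbol is ZNF followed by digits and at most 1 capital letter, with a mean of at least 4 FPKM over the 12 DMSO and thalidomide libraries. FPKM is the number of fragments scaled to transcript length and library size. The rule took 294 of the 448 ZNF genes in the table of 14114 genes and left 154 below that level. ZNF81 at 4.04 FPKM and ZNF276 at 4.04 FPKM lay just inside the threshold, and ZNF429 at 3.99 FPKM and ZNF419 at 3.98 FPKM just outside it. All 294 genes entered the tests, with no further filter on low values.

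Most ZNF proteins carry rows of C2H2 zinc fingers, small folds that each hold a zinc ion and together read a stretch of DNA. Many of them also begin with a KRAB domain, which binds the corepressor TRIM28; TRIM28 in turn brings the histone methyltransferase SETDB1 and heterochromatin proteins to the bound site, and a main use of this system is to keep retroelements silent. Their genes arose by repeated local duplication and stand in long runs on human chromosome 19. BET proteins bind acetylated histones and help RNA polymerase II out of promoter pausing.

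RNA was taken from 3 established lines of basal, triple-negative breast cancer, each of which stands for 1 tumour only. MDA-MB-157 is the first, MDA-MB-231 the second and MDA-MB-468 the third, and where values are given for the 3 lines together they run in this order. The cells had received BETd-246 at 100 nM, BETi-211 at 1000 nM, thalidomide at 1000 nM or the vehicle DMSO at 0.05% by volume. BETd-246 joins a BET ligand to a ligand of the ubiquitin ligase subunit cereblon, BETi-211 is a BET inhibitor with no such ligand, and thalidomide is itself a cereblon ligand. The series holds 24 libraries, 2 described as independent biological replicates in each of the 12 groups of line and treatment, and it uses both thalidomide and DMSO as controls. The control value of a line is therefore the mean over its 4 thalidomide and DMSO libraries. The p-values measure the spread between the 2 replicates of a group, pooled over the 12 groups.

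The label was checked against the gene annotation, and the lines against marker genes. All 294 genes were found in GENCODE version 29, of which 287 had a protein-coding reading frame and 7 were transcribed pseudogenes. The 287 proteins held a median of 10 C2H2 fingers, 176 of them matched a KRAB pattern and 149 of the 294 genes lay on chromosome 19. The receptor genes ESR1 and PGR were not among the 14114 genes, and ERBB2 averaged 17.7, 18.5 and 12.4 FPKM in controls of the 3 lines. The leukocyte genes PTPRC and CD3E and the endothelial genes PECAM1, VWF and CDH5 were not in the table either. The myeloid genes CD14 and CSF1R were, and summed to 53.98 to 63.6 FPKM in MDA-MB-157 controls, nearly all of it CD14, against 0.86 to 1.08 in MDA-MB-231 controls and 1.222 to 1.504 in MDA-MB-468 controls. The part of this in the results was not tested. The 6 epithelial markers summed to 3213 to 3623 FPKM in MDA-MB-468 controls, 462 to 482 in MDA-MB-157 controls and 351 to 409 in MDA-MB-231 controls, and the 3 mesenchymal markers to 11.65 to 12.7, 2004 to 2046 and 839 to 986 FPKM. In controls KRT5 averaged 752 FPKM in MDA-MB-468 cells, against 0.54 FPKM in MDA-MB-157 cells and 0.0019 FPKM in MDA-MB-231 cells, and VIM averaged 12.3 FPKM in MDA-MB-468 cells, 1996 FPKM in MDA-MB-157 cells and 891 FPKM in MDA-MB-231 cells. The FPKM of a library summed to 454289 to 534179, and replicates correlated over the ZNF genes at r = 0.992 to 0.997 in 11 of the 12 groups and at r = 0.980 in MDA-MB-231 thalidomide, whose replicates stood apart. In bulk RNA, fewer cells and less RNA per cell cannot be told apart.

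Promoters are printed as examples for 2 genes that fell with both compounds, ZNF217 and ZNF12, and for 2 that fell with BETd-246 and were higher with BETi-211, ZNF627 and ZNF844. Whether the sequences bear on these patterns was not tested. Each runs 5′ to 3′ on the strand of the gene over 250 bases before and 50 after the RefSeq start on GRCh38.p14. ZNF217 is at chr20:53593790-53594089 on the minus strand, ZNF12 at chr7:6706898-6707197 on the minus strand, ZNF627 at chr19:11597233-11597532 on the plus strand and ZNF844 at chr19:12064481-12064780 on the plus strand. The last 30 bases of the window were found in a GENCODE version 29 transcript of the gene for ZNF217, ZNF627 and ZNF844 but not for ZNF12. Capitals mark CCAAT and GGGCGG, the words of the CCAAT box and the GC box, on either strand.
ZNF217: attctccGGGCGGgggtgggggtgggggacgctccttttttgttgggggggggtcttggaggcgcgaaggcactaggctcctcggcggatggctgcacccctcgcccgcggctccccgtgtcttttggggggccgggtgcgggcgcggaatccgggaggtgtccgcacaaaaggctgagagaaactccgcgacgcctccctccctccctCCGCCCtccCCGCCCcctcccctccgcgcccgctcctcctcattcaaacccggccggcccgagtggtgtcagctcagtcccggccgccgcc
ZNF12: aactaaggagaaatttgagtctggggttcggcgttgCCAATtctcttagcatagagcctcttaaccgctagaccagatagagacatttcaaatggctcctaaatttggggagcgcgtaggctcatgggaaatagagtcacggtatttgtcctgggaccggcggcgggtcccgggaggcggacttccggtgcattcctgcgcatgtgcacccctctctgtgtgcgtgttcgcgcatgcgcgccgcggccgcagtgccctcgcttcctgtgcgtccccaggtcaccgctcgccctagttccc
ZNF627: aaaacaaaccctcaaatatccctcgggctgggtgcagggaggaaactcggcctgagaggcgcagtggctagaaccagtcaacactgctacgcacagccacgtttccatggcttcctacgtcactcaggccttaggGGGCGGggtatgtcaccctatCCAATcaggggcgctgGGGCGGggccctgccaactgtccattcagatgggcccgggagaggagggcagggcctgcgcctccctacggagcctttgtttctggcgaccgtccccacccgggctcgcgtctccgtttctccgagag
ZNF844: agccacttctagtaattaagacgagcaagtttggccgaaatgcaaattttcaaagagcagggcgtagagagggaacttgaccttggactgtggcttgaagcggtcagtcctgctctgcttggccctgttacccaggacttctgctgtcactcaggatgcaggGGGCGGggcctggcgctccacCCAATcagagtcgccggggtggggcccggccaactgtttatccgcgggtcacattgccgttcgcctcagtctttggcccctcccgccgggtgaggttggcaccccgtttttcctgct
The ZNF217 stretch held 3 GC box words and no CCAAT, the ZNF12 stretch 1 CCAAT and no GC box word, and those of ZNF627 and ZNF844 held both, with no overlap between the marked words. Over the 256 genes matched to a RefSeq promoter, CCAAT was present in 48.8%, against 35.7% of all 27305 promoters, and GGGCGG in 64.1%, against 44.6%. The TATA box word TATAAA was present in 2.73%, against 11.95%, and the E box word CACGTG in 6.25%, against 7.435%. The median number of CG pairs was 22 in the ZNF promoters, against 14 over all promoters. The ZNF genes were chosen by their level, whereas the 27305 promoters were not limited to genes expressed in these lines, so the 2 sets are unlike. These are matches of letters in a fixed window and were not tested against the changes.

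In controls the ZNF genes ran over a wide range of levels, described here without a test because these libraries chose the genes. The highest means over the 12 control libraries were 90.0 FPKM for ZNF146, which is made almost only of zinc fingers, and 70.3 FPKM for ZNF207, a spindle and kinetochore factor. ZNF302 averaged 49.1 FPKM, ZNF544 34.5 FPKM and ZNF664 34.0 FPKM. Levels also differed between lines: 152 of the 294 genes had a range over the line means of at least 1 on the log2(FPKM + 1) scale, with a median range of 1.01. MDA-MB-157 cells held the highest mean of 148 genes, MDA-MB-468 cells of 106 and MDA-MB-231 cells of 40.

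The genes highest in 1 line against the others were described for each line. ZNF483 averaged 39.5 ± 1.3 FPKM in MDA-MB-157 controls, 0.92 ± 0.32 in MDA-MB-231 cells and 1.29 ± 0.33 in MDA-MB-468 cells (SD, n = 4 each). ZNF517 stood at 9.50 ± 1.03 FPKM in MDA-MB-157 cells, 1.39 ± 0.18 in MDA-MB-231 cells and 1.37 ± 0.18 in MDA-MB-468 cells. In MDA-MB-468 the highest against the other lines were ZNF713 at 19.3 ± 0.4 FPKM, against 2.24 in MDA-MB-157 cells and 0.56 in MDA-MB-231 cells, and ZNF165, a SCAN domain gene known from testis, at 14.8 ± 0.7 FPKM, against 3.51 and 0.95. In MDA-MB-231 they were ZNF395 at 27.4 ± 0.5 FPKM, against 11.545 in MDA-MB-157 cells and 12.95 in MDA-MB-468 cells, and ZNF22 at 19.6 ± 1.9 FPKM, against 7.199 and 10.215. ZNF45 was listed at 0 in all 8 libraries of MDA-MB-157 cells and averaged 9.30 ± 0.45 FPKM in MDA-MB-231 controls and 20.9 ± 1.2 FPKM in MDA-MB-468 controls.

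The first comparison asked what a degrader of BET proteins did to these genes. BETd-246 lowered the ZNF genes together: 249 of 294 fell and 3 rose in MDA-MB-157 cells, 269 fell and none rose in MDA-MB-231 cells, and 254 fell and 6 rose in MDA-MB-468 cells. Their median log2 changes were -0.72, -0.80 and -0.82 in the 3 lines, against -0.03, -0.05 and -0.03 over all genes. Falls of at least 2-fold were called for 91 genes in MDA-MB-157 cells, 104 in MDA-MB-231 cells and 117 in MDA-MB-468 cells.

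A gene was called with limma on log2(FPKM + 1), at an adjusted p below 0.05 over all 14114 genes, and log2 changes are on that scale, which understates the change of low genes. Over all genes BETd-246 lowered 32.4% in MDA-MB-157 cells, 33.3% in MDA-MB-231 cells and 33.7% in MDA-MB-468 cells, and raised 19%, 14.8% and 20.1%. Among the 10238 genes with the same minimum control level it lowered 34.7%, 34.8% and 35.7%. Falls of at least 2-fold were called for 4.2%, 4.56% and 6.11% of all genes. Median-of-ratios scaling moved the median of all genes to 0.09, 0.08 and 0.09, and the ZNF median then lay -0.67, -0.72 and -0.76 from it, against -0.69, -0.75 and -0.79 as deposited. The split of all genes turned under that scaling, to 3137 lower and 5759 higher in MDA-MB-157 cells, 3068 and 5694 in MDA-MB-231 cells and 3356 and 5980 in MDA-MB-468 cells, while that of the ZNF genes stayed at 227 lower and 12 higher, 243 and 11, and 233 and 19. The control libraries of this comparison are those that chose the ZNF genes. In MDA-MB-231 no ZNF gene rose at the adjusted threshold, and 275 of 294 passed an unadjusted p below 0.05 in either direction, against 54.3% of all genes.

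The groups barely overlapped. Both BETd-246 libraries lay below all 4 controls for 260 ZNF genes in MDA-MB-157 cells, 275 in MDA-MB-231 cells and 261 in MDA-MB-468 cells, against 37.4%, 38% and 38.1% of all genes. Across lines, 233 of the 294 genes fell in all 3, against 23.6% of all genes, and 16 fell in none. Over the mean of the 3 lines 278 fell and 6 rose, against 42.2% and 27.9% of all genes.

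The summed level gives the same picture in FPKM. The 294 genes summed to 2065 ± 28.7 FPKM with BETd-246 (SD, n = 2) and 3369 ± 80.3 in controls (SD, n = 4) in MDA-MB-157. They summed to 1396 ± 9.88 FPKM with BETd-246 and 2441 ± 36.5 in controls in MDA-MB-231 cells, and to 1772 ± 1.81 FPKM with BETd-246 and 3001 ± 56.4 in controls in MDA-MB-468 cells. In each line both degrader libraries lay below every control library. With BETi-211 the sums were 86.4%, 81.9% and 81.8% of the controls.

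**Figure D1:**
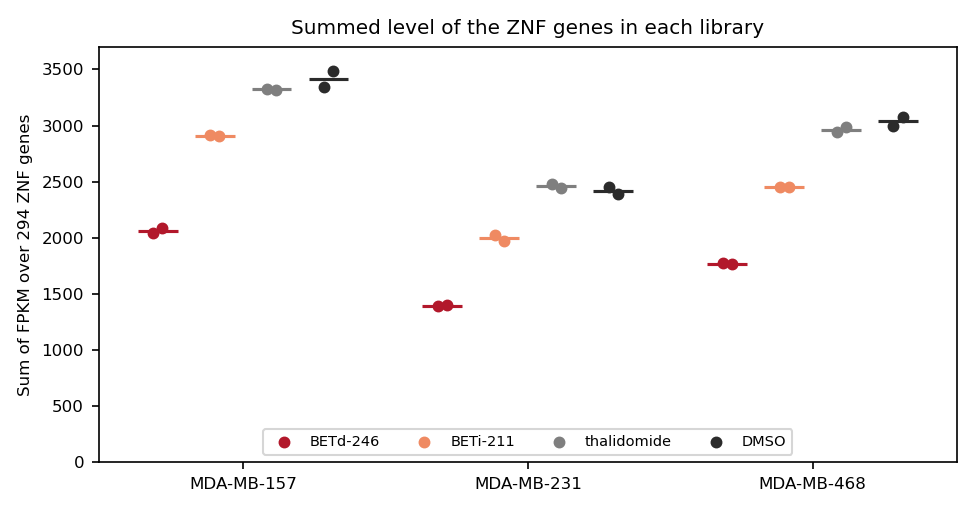
Sum of FPKM over the 294 ZNF genes in each of the 24 libraries (points), with the mean of each group as a line, for BETd-246, BETi-211, thalidomide and DMSO in 3 lines. BETd-246 libraries lie lowest in every line, at 57.2% to 61.3% of the controls, and BETi-211 libraries lie between them and the controls.

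**Figure D2:**
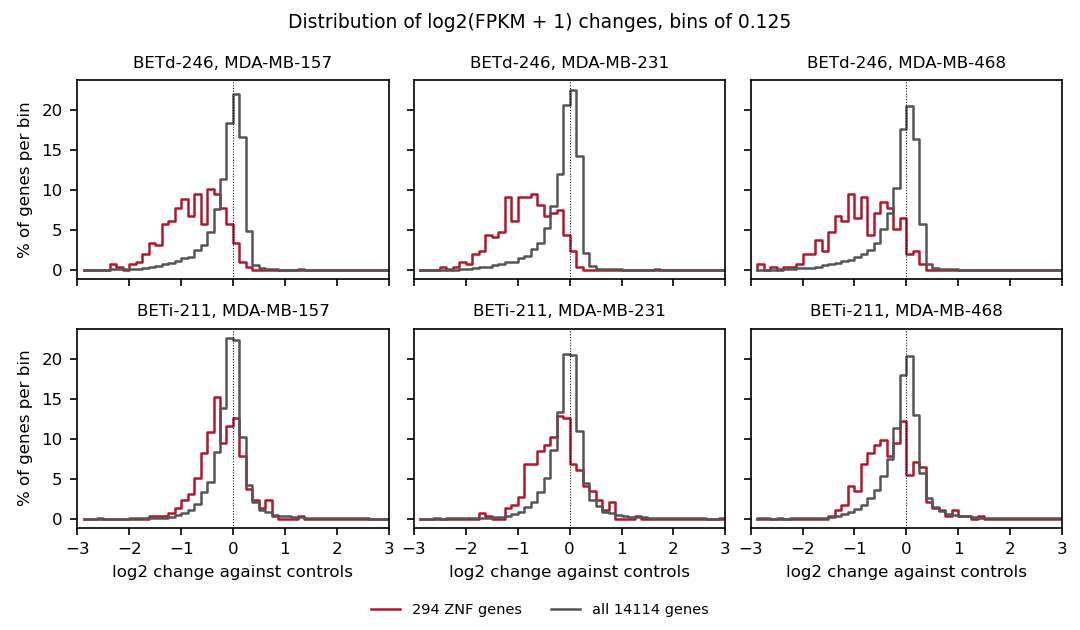
Distribution of log2 changes against controls on the log2(FPKM + 1) scale for the 294 ZNF genes and all 14114 genes, as percent of genes in each bin, by compound and line. The ZNF genes are shifted left of all genes with BETd-246, with medians of -0.72 to -0.82, and less so with BETi-211, with medians of -0.23 to -0.26.

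ZNF217 fell most over the mean of the 3 lines; it encodes a DNA-binding corepressor partner that is amplified in breast cancer. In MDA-MB-468 it was at 2.54 and 2.83 FPKM with BETd-246, 24.8 and 24.8 FPKM with thalidomide and 23.2 and 23.9 FPKM with DMSO. In MDA-MB-157 it was at 5.91 and 5.67 FPKM with BETd-246, 28.5 and 29.01 with thalidomide and 27.5 and 30.2 with DMSO. In MDA-MB-231 it was at 1.84 and 1.86 FPKM with BETd-246, 18.4 and 13.1 with thalidomide and 14.2 and 14.5 with DMSO. The degrader libraries were far below every control in each line, with no overlap. The log2 changes were -2.13 in MDA-MB-157 cells, -2.48 in MDA-MB-231 cells and -2.78 in MDA-MB-468 cells, each with an SE of 0.083 (limma adjusted p = 2.86e-12, 4.66e-13 and 8.20e-14).

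ZNF627 and ZNF12, both KRAB zinc finger genes, came next. ZNF627 in MDA-MB-468 was at 1.29 and 1.18 FPKM with BETd-246, 14.2 and 13.8 with thalidomide and 15.4 and 15.2 with DMSO. Its log2 changes were -2.26, -1.85 and -2.81 in the 3 lines (SE 0.054 each). ZNF12 in MDA-MB-157 was at 2.85 and 3.12 FPKM with BETd-246, 17.2 and 17.9 with thalidomide and 17.7 and 19.5 with DMSO. Its log2 changes were -2.26, -2.15 and -1.98 (SE 0.048 each). For both genes all degrader libraries lay below all controls of their line.

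ZNF184, ZNF436 and ZNF281 complete the largest falls. ZNF184, a KRAB gene beside the histone genes of chromosome 6, changed by -1.88, -1.99 and -2.35 on the log2 scale in the 3 lines. ZNF436 changed by -1.85, -1.85 and -2.52, and stood at 0.36 and 0.42 FPKM with BETd-246 in MDA-MB-231, against 3.74 and 4.08 FPKM with thalidomide and 4.09 and 4.03 FPKM with DMSO. ZNF281, a regulator of stem cell and mesenchymal genes that is closely related to ZNF148, changed by -1.60, -2.08 and -1.89. The exons of ZNF436 share 77 bases with those of an antisense gene, ZNF436-AS1, and the library kit does not mark strand, so their reads cannot be told apart.

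The rises with BETd-246 were small. ZNF358 was at 18.8 and 19.2 FPKM with BETd-246 in MDA-MB-157, 17.1 and 18.4 with thalidomide and 16.2 and 13.04 with DMSO. Its degrader libraries lay just above the highest control. It rose by 0.23 in MDA-MB-157 cells and 0.29 in MDA-MB-468 cells on the log2 scale (SE 0.065 each; limma adjusted p = 0.00886 and 0.00152), and changed by 0.05 in MDA-MB-231 cells without passing the test. The call in MDA-MB-157 was lost without its second BETd-246 library (adjusted p = 0.0697), both calls were lost with thalidomide alone as control (0.358 and 0.0537), and 19.5% of the 50-base words of ZNF358 also occur in another gene.

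ZNF738, a KRAB gene in which no zinc finger was found in the reading frame used, rose by 0.30 in MDA-MB-157 cells and 0.29 in MDA-MB-468 cells, and changed by -0.12 in MDA-MB-231 cells without passing the test. ZNF428 rose by 0.12 over the mean of the lines (limma adjusted p = 0.0157) and passed the test in no single line, where it changed by 0.11, 0.12 and 0.13. ZNF532 rose by 0.21 in MDA-MB-157 cells and 0.17 in MDA-MB-468 cells and fell by 0.10 in MDA-MB-231 cells, where quantile and median-of-ratios scaling turned the change to 0.20 and 0.07. Scaling to column totals ended the rise in MDA-MB-468 (adjusted p = 0.183). The fall in MDA-MB-231 was lost with the line fitted alone, with DMSO alone as control and without either DMSO library, the first thalidomide library or either BETd-246 library (adjusted p = 0.0589 to 0.235). The other 2 genes that rose over the mean of the lines, named here after their values were seen, were ZNF580 by 0.18 and ZNF185 by 0.11.

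**Figure D3:**
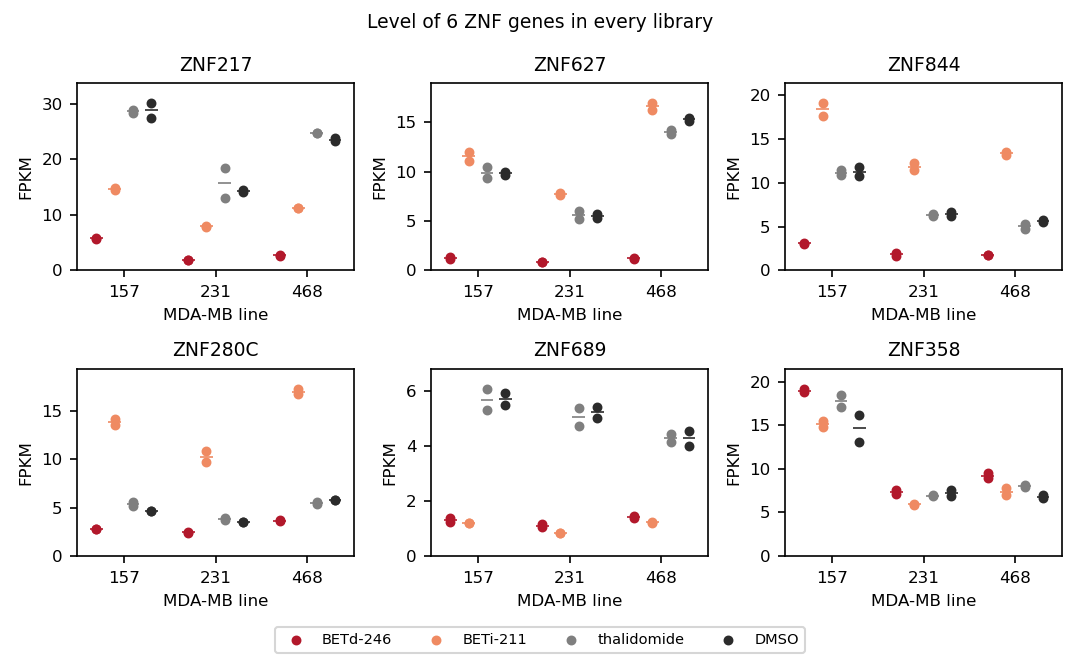
FPKM of ZNF217, ZNF627, ZNF844, ZNF280C, ZNF689 and ZNF358 in every library (points) with group means as lines, for BETd-246, BETi-211, thalidomide and DMSO in the 3 lines, each panel with its own axis from 0. ZNF217 is lowest with BETd-246 and intermediate with BETi-211, ZNF844 and ZNF280C are highest with BETi-211, ZNF689 is low with both, and ZNF358 changes little.

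The second comparison asked what BET inhibition without degradation did to the same genes. BETi-211 lowered 165 ZNF genes and raised 46 in MDA-MB-157 cells, lowered 168 and raised 52 in MDA-MB-231 cells, and lowered 177 and raised 54 in MDA-MB-468 cells. The median log2 changes were -0.23, -0.24 and -0.26. Genes with the largest falls were ZNF689, ZNF507 and ZNF484, and those with the largest rises ZNF280C, ZNF844 and ZNF92.

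Over all genes BETi-211 lowered 30.9%, 31.4% and 32.5% and raised 14.9%, 18.7% and 21.3% in the 3 lines. Thus the share of ZNF genes called higher was near that of all genes. Falls of at least 2-fold were called for 9, 12 and 21 ZNF genes, against 0.914%, 1.47% and 2.2% of all genes. Over the mean of the lines 192 fell and 59 rose, against 40.6% and 26.6% of all genes, and 134 fell and 30 rose in all 3 lines, against 19.9% and 8.26% of all genes. Quantile scaling moved this split, to 145 lower and 76 higher in MDA-MB-157 cells, 146 and 75 in MDA-MB-468 cells and 161 and 86 over the mean of the lines. Over all genes the same scaling gave 3642 lower and 3471 higher, 3537 and 3613, and 3787 and 3958 in the 3 lines.

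ZNF689, a KRAB gene on chromosome 16, was at 1.192 and 1.199 FPKM with BETi-211 in MDA-MB-157, 5.30 and 6.08 with thalidomide and 5.91 and 5.48 with DMSO. The inhibitor libraries lay well below all 4 controls there and in the other lines. It changed by -1.61, -1.75 and -1.25 with BETi-211 (SE 0.061; limma adjusted p at most 6.2e-11) and by -1.53, -1.54 and -1.12 with BETd-246. ZNF507, which has no KRAB pattern, changed by -1.07, -1.65 and -1.36 with BETi-211 and by -0.68, -0.85 and -0.75 with BETd-246. ZNF484, a KRAB gene on chromosome 9, changed by -1.39, -1.17 and -1.23 with BETi-211 and by -1.11, -1.35 and -1.26 with BETd-246. Both compounds are set against the same control libraries.

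ZNF280C, a gene of chromosome X without a KRAB pattern, rose most. In MDA-MB-468 it was at 16.7 and 17.3 FPKM with BETi-211, 5.59 and 5.37 with thalidomide and 5.76 and 5.82 with DMSO. In MDA-MB-157 it was at 14.2 and 13.6 FPKM with BETi-211, 5.57 and 5.22 with thalidomide and 4.68 and 4.63 with DMSO. In MDA-MB-231 it was at 10.9 and 9.72 FPKM with BETi-211, 3.93 and 3.70 with thalidomide and 3.52 and 3.58 with DMSO. Every inhibitor library was over 2 times the highest control of its line. The log2 changes were 1.31, 1.27 and 1.44 with BETi-211 (SE 0.043; limma adjusted p at most 1.43e-12). With BETd-246 the same gene fell, with changes of -0.68, -0.43 and -0.51.

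ZNF844 and ZNF92, both KRAB genes, did the same. ZNF844 in MDA-MB-468 was at 13.2 and 13.5 FPKM with BETi-211 and at 1.78 and 1.72 FPKM with BETd-246, against 4.75 and 5.30 FPKM with thalidomide and 5.48 and 5.75 FPKM with DMSO. Its log2 changes were 0.67, 0.81 and 1.19 with BETi-211 and -1.59, -1.38 and -1.20 with BETd-246. ZNF92 in MDA-MB-468 was at 7.29 and 7.39 FPKM with BETi-211 and at 0.69 and 0.66 FPKM with BETd-246, against 2.90 and 2.82 FPKM with thalidomide and 3.32 and 3.49 FPKM with DMSO. Its log2 changes were 0.66, 0.86 and 1.02 with BETi-211 and -1.56, -1.26 and -1.30 with BETd-246. For both genes the controls stood between the compounds, with no overlap. Of their 50-base words, 2.38% in ZNF844 and 1.17% in ZNF92 also occur in another gene.

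The third comparison set BETd-246 directly against BETi-211. Its log2 differences used none of the libraries that chose the genes, though the spread behind its calls was pooled over all 12 groups. The doses differed by design, 100 nM of the degrader and 1000 nM of the inhibitor, so the values are those of these doses only. The degrader was lower than the inhibitor for 187 ZNF genes and higher for 38 in MDA-MB-157 cells, lower for 201 and higher for 32 in MDA-MB-231 cells, and lower for 181 and higher for 41 in MDA-MB-468 cells. The medians were -0.47, -0.54 and -0.47, against 0.04, 0.01 and 0.02 over all genes. Over all genes the degrader was lower for 22.3%, 23.9% and 23.2% and higher for 24.2%, 17.8% and 20.1%. Quantile scaling moved the ZNF split in MDA-MB-231 cells to 171 lower and 55 higher. The split of all genes turned under median-of-ratios scaling, to 2659 lower and 5522 higher, 2769 and 5270, and 2734 and 5306 in the 3 lines.

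Over the mean of the lines the degrader was lower for 208 ZNF genes and higher for 52, against 30% and 34.1% of all genes. ZNF627 had the largest difference, of -2.47, -2.27 and -2.98 on the log2 scale (limma adjusted p at most 1.05e-13). It was at 1.19 and 1.36 FPKM with BETd-246 in MDA-MB-157 and at 11.1 and 12.005 FPKM with BETi-211. With BETi-211 against controls ZNF627 rose by 0.21, 0.42 and 0.17. The calls in MDA-MB-157 cells and MDA-MB-468 cells were lost without the second BETi-211 library of the line (adjusted p = 0.0972 and 0.132), and that in MDA-MB-468 cells also under scaling to column totals and with DMSO alone as control (0.176 and 0.162). ZNF844 followed with differences of -2.25, -2.18 and -2.39. ZNF184 did not pass the test with BETi-211 in any line, at 0.10, -0.03 and -0.11, and its difference of BETd-246 from BETi-211 was -1.98, -1.96 and -2.24.

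The 2 genes with the largest differences the other way were ZNF507 and ZNF143. ZNF143 activates small nuclear RNA genes and many promoters of transcribed genes. In MDA-MB-468 it was at 6.28 and 6.12 FPKM with BETd-246 and at 4.23 and 4.22 FPKM with BETi-211, against 9.72 and 10.2 FPKM with thalidomide and 10.1 and 9.90 FPKM with DMSO. It fell with both compounds, and the inhibitor libraries were the lowest; under quantile scaling the fall with BETd-246 in MDA-MB-231 was -0.08 and no longer called. The difference of BETd-246 from BETi-211 was 0.50, 0.53 and 0.46 in the 3 lines (limma adjusted p at most 3.11e-06). ZNF507 differed by 0.39, 0.80 and 0.61.

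**Figure D4:**
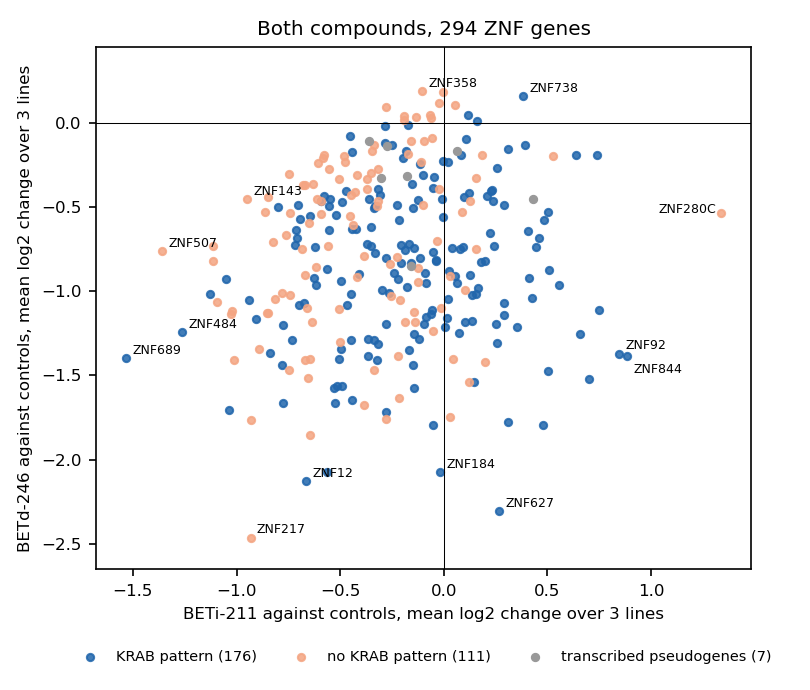
Log2 change against controls with BETi-211 (horizontal) and with BETd-246 (vertical) for each of the 294 ZNF genes as the mean over 3 lines, coloured by KRAB pattern. Both axes share the control libraries; nearly all genes lie below 0 on the vertical axis, and genes with a KRAB pattern are spread to both sides of 0 on the horizontal axis.

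The KRAB genes were split from the others after their values had been seen, so the split is a description. Of 176 genes with a KRAB pattern 171 fell and 1 rose with BETd-246 over the mean of the lines, with a median of -0.85, against 42.2% lower and 27.9% higher over all genes. Of 111 genes without it 100 fell and 5 rose, with a median of -0.67. With BETi-211, 99 of the KRAB genes fell and 50 rose, with a median of -0.15, and 88 of the others fell and 8 rose, with a median of -0.39, against 40.6% lower and 26.6% higher over all genes. The share of KRAB genes called higher with BETi-211 was thus near that of all genes. Under quantile scaling the KRAB genes split into 81 lower and 67 higher with BETi-211. All genes then split into 4647 lower and 5008 higher. In the direct comparison the medians of degrader against inhibitor were -0.67 for KRAB genes and -0.17 for the others. The 10 genes with a SCAN pattern alone, a domain through which such proteins pair, all fell with BETd-246, with a median of -0.98.

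The number of fingers, the share of unique sequence and the position were described in the same way. Genes with 0 to 2 fingers had a median change of -0.33 with BETd-246 (20 genes), those with 3 to 6 of -0.64 (41 genes), those with 7 to 10 of -0.78 (84 genes), those with 11 to 15 of -0.95 (93 genes) and those with 16 or more of -0.75 (49 genes). Spearman's rho of the BETd-246 change with the number of fingers was -0.17 across the 287 genes with a reading frame. Of the 156 genes with under 1% of their 50-base words in another gene 144 fell with BETd-246, and of the 34 genes with 10% or more 31 fell. Exons of 143 genes overlap those of another gene, and 136 of these fell, as did 142 of the 151 without overlap. These counts are over the mean of the lines, where 42.2% of all genes fell with BETd-246. Spearman's rho of the BETd-246 change with the span of the gene was 0.30 across the 294 genes, which share their libraries.

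Along chromosome 19 the ZNF genes were grouped into 14 runs of neighbours, also after their values had been seen, with coordinates on GRCh38 from GENCODE version 29. For comparison, BETd-246 lowered 32.4%, 33.3% and 33.7% of all genes in the 3 lines. BETi-211 lowered 40.6% of all genes and raised 26.6% over the mean of the lines. Under quantile scaling this split of all genes was 4647 lower and 5008 higher. It was 4494 and 5505 under median-of-ratios scaling and 7016 and 2526 under scaling to column totals. In the run of 14 genes from ZNF627 to ZNF791, at chr19:11559374-12633840, every gene fell with BETd-246 in each line, with medians of -1.14, -0.98 and -1.26. With BETi-211 5 of them fell and 7 rose over the mean of the lines, or 6 and 6 under scaling to column totals, 1 and 8 under quantile scaling and 3 and 8 under median-of-ratios scaling. In the run of 21 genes from ZNF101 to ZNF257, at chr19:19668796-22091480, 17, 17 and 18 fell with BETd-246 in the 3 lines. With BETi-211 4 of them fell and 14 rose, or 2 and 15 under quantile and median-of-ratios scaling.

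In the run of 34 genes from ZNF579 to ZNF324, at chr19:55576770-58475436, 29 fell and 2 rose with BETi-211, and 30, 33 and 32 fell with BETd-246. In the run of 21 genes from ZNF146 to ZNF573, at chr19:36214602-37817300, 16 fell and 1 rose with BETi-211, or 14 and 4 under quantile scaling and 14 and 3 under median-of-ratios scaling. In the run of 24 genes from ZNF614 to ZNF331, at chr19:52012765-53580269, 12 fell and 7 rose with BETi-211. These shares are near the 40.6% lower and 26.6% higher of all genes, and quantile scaling turned the split to 5 lower and 12 higher. The same scaling also turned the split of all genes, to 4647 lower and 5008 higher. The other 804 genes of chromosome 19 outside these zinc finger families had a median of 0.04 with BETd-246 over the mean of the lines. Of these 259 were lower and 320 higher, against 42.2% and 27.9% of all genes. In MDA-MB-231 alone 210 of them were lower and 150 higher, against 33.3% and 14.8% of all genes, with a median of -0.008.

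**Figure D5:**
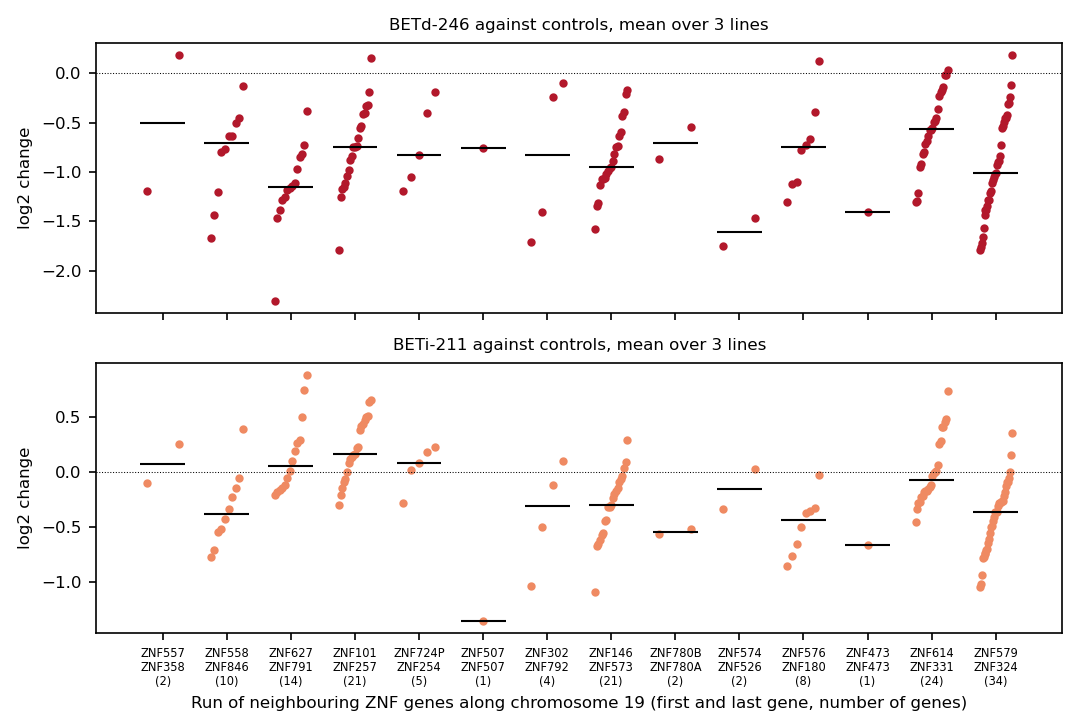
Log2 change against controls, mean over 3 lines, of each ZNF gene in 14 runs of neighbours in their order along chromosome 19 (points sorted by value within a run, lines at medians), for BETd-246 above and BETi-211 below. All run medians lie below 0 with BETd-246; with BETi-211 those of ZNF557 to ZNF358, ZNF627 to ZNF791, ZNF101 to ZNF257 and ZNF724P to ZNF254 lie above 0 (that of ZNF627 to ZNF791 at -0.003 under scaling to column totals), and the other 10 lie below.

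Genes were then taken by known role, from lists counted over the mean of the lines, where 42.2% of all genes fell and 27.9% rose with BETd-246 and 40.6% fell and 26.6% rose with BETi-211. Of 7 measured genes linked to heterochromatin and retroelements 6 met the level rule, and all 6 fell with BETd-246, with a median of -0.93, and 5 fell with BETi-211. The seventh, ZNF10, was below that level, fell by 0.47 with BETd-246 and rose by 1.28 with BETi-211. ZNF274, which brings SETDB1 to the 3′ ends of other ZNF genes, changed by -0.70, -1.05 and -1.27 with BETd-246 in the 3 lines. ZNF93, a repressor of L1 elements, changed by -1.09, -1.18 and -1.19. ZNF420, described as a repressor of p53 target genes, changed by -1.38, -1.30 and -1.27, and ZNF644, a partner of the histone methyltransferases G9a and GLP, by -0.73, -0.97 and -0.86. ZNF268 fell by 0.62, 0.35 and 0.45 on the log2 scale, and quantile scaling ended its calls in MDA-MB-231 cells and MDA-MB-468 cells. ZNF91, the repressor of SVA elements, fell by 0.35 in MDA-MB-231 cells, a call that quantile and median-of-ratios scaling ended (adjusted p = 0.256 and 0.0566), and did not pass the test in MDA-MB-157 cells or MDA-MB-468 cells, at -0.16 and -0.07.

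The cofactors of KRAB silencing are not ZNF genes. Of 19 measured, 9 fell and 4 rose with BETd-246, shares near those of all genes, and median-of-ratios scaling turned this to 5 lower and 11 higher. The same scaling turned the split of all genes to 3902 lower and 7252 higher. TRIM28 was at 188 and 193 FPKM with BETd-246 and 245 and 247 FPKM with BETi-211 in MDA-MB-468, against 173 and 178 FPKM with thalidomide and 161 and 156 FPKM with DMSO. It rose with BETi-211 by 0.39, 0.41 and 0.56 in the 3 lines. SETDB1 fell with both compounds, with changes of -0.30, -0.78 and -0.30 with BETd-246 and of -0.72, -1.11 and -0.88 with BETi-211.

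Of 8 measured genes linked to cancer 6 met the level rule, and all 6 fell with BETd-246, with a median of -1.25, and 5 fell with BETi-211. Of the 2 below that level ZNF503 changed by -0.83 with BETd-246 and 0.76 with BETi-211, and ZNF516 by -0.30 and -0.02. Besides ZNF217 and ZNF281, ZNF367 changed by -1.23, -1.49 and -1.83 with BETd-246 and by -0.36, -0.70 and -0.90 with BETi-211. ZNF148, a GC-rich promoter factor, changed by -0.49, -0.33 and -0.51 with BETd-246 and by -0.92, -0.65 and -0.97 with BETi-211. ZNF703, a gene of a luminal breast cancer amplicon, fell by 0.75, 1.26 and 0.97 on the log2 scale with BETd-246. With BETi-211 it rose by 0.65 in MDA-MB-157 cells, fell by 0.37 in MDA-MB-231 cells and changed by 0.03 in MDA-MB-468 cells. The fall in MDA-MB-231 was lost without either BETi-211 library (adjusted p = 0.0974 and 0.1004), under quantile and median-of-ratios scaling, with the line fitted alone and with DMSO alone as control (0.0575 to 0.181), and 1 thalidomide library there held 9.01 FPKM, against 4.97 to 5.62 FPKM in the other controls. ZNF395 fell by 0.24, 0.10 and 0.24 with BETd-246, and median-of-ratios scaling turned the change in MDA-MB-231 to 0.09 and ended the call in MDA-MB-468. Quantile scaling ended the calls in all 3 lines (adjusted p = 0.194, 0.318 and 0.77), and that in MDA-MB-231 was also lost with DMSO alone as control and without the first DMSO library or either BETd-246 library (adjusted p = 0.0526 to 0.1255). Of its 50-base words 41.7% also occur in another gene, and its exons share 2032 bases with those of FBXO16.

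The genes of the Z3 complex, which joins the reader ZMYND8, differed among themselves. Of the 3 ZNF genes 2 fell and 1 rose with BETd-246, and 1 fell with BETi-211. ZNF592 changed by -0.67, -0.66 and -0.77 and ZNF687 by -0.83, -0.80 and -1.11 with BETd-246, while ZNF532 had the small changes given above. ZMYND8 itself fell with BETd-246 by 0.21, 0.59 and 0.33 and with BETi-211 by 0.79, 1.61 and 0.99. ZNF532 fell with BETi-211 by 0.15, 0.41 and 0.27, and ZNF592 fell with it in MDA-MB-468 only, by 0.21. Quantile scaling ended the calls of ZNF532 in MDA-MB-157 cells and ZNF592 in MDA-MB-468 cells (adjusted p = 0.321 and 0.12), and median-of-ratios scaling that of ZNF532 (0.0897). ZNF687 changed with BETi-211 by -0.02, 0.13 and -0.01, of which the value in MDA-MB-231 cells passed the test, though not without its second DMSO library or either BETi-211 library (adjusted p = 0.0996, 0.179 and 0.0749), nor under scaling to column totals, with the line fitted alone or with thalidomide alone as control (0.0832 to 0.322), and that in MDA-MB-468 cells turned to 0.14 under quantile scaling.

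ZNF76, the paralog of ZNF143, did not follow it. ZNF76 changed by -0.01 and -0.05 with BETd-246 in MDA-MB-157 cells and MDA-MB-231 cells, without passing the test, and median-of-ratios scaling turned both to 0.14. It rose by 0.19 in MDA-MB-468. With BETi-211 it fell by 0.27 and 0.25 in MDA-MB-157 cells and MDA-MB-231 cells and changed by -0.06 in MDA-MB-468 cells.

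All 3 genes that serve ribosomes and translation fell with BETd-246, with a median of -0.33, and 2 fell and 1 rose with BETi-211. ZNF622, a maturation factor of the large ribosomal subunit, had the largest fall of these with BETd-246. In MDA-MB-468 it was at 8.62 and 8.56 FPKM with BETd-246 and 33.4 and 35.2 FPKM with BETi-211, against 30.5 and 29.5 FPKM with thalidomide and 29.6 and 28.9 FPKM with DMSO. It lay below the controls with the degrader and above them with the inhibitor, without overlap. Its log2 changes were -1.37, -1.22 and -1.68 with BETd-246 and 0.17, 0.23 and 0.20 with BETi-211. The rise in MDA-MB-157 cells was lost without either BETi-211 library, the second DMSO library or either thalidomide library (adjusted p = 0.0619 to 0.156), and that in MDA-MB-468 cells without the second BETi-211 library (0.122). Scaling to column totals ended both (adjusted p = 0.1001 and 0.0696), and a replicate block the call in MDA-MB-157 cells (0.053). ZNF593, also of the large subunit, fell by 0.36, 0.33 and 0.31 with BETd-246, and quantile scaling ended its calls in MDA-MB-231 cells and MDA-MB-468 cells. ZNF598, a ubiquitin ligase for collided ribosomes, fell by 0.25 in MDA-MB-231 cells, a call that quantile and median-of-ratios scaling ended (adjusted p = 0.746 and 0.362), and changed by -0.07 in MDA-MB-157 cells and by -0.01 in MDA-MB-468 cells, where quantile and median-of-ratios scaling turned it to 0.19 and 0.17.

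Of 5 measured genes for RNA binding, splicing or the spindle 4 met the level rule, of which 4 fell with BETd-246, with a median of -0.35, and 3 with BETi-211, with a median of -0.38. ZNF346, which binds double-stranded RNA, changed by -0.50, -0.87 and -0.76 with BETd-246 and by -0.87, -0.79 and -0.82 with BETi-211. ZNF638, linked to splicing, fell by 0.27, 0.34 and 0.32 with BETd-246. ZNF207 fell by 0.22, 0.16 and 0.13, and median-of-ratios scaling ended the call in MDA-MB-157 cells (adjusted p = 0.163) and turned the changes in MDA-MB-231 cells and MDA-MB-468 cells to 0.04 and 0.06. ZNF326, a subunit of a complex that couples splicing to elongation, fell by 0.46 in MDA-MB-231 cells and 0.38 in MDA-MB-468 cells with BETd-246; the first call was lost without the first BETd-246 library (adjusted p = 0.152) and the second without either BETd-246 library (adjusted p = 0.186 and 0.114), either DMSO library (0.0782 and 0.0731) or the second thalidomide library (0.108). Quantile and median-of-ratios scaling ended both calls (adjusted p = 0.106 to 0.743).

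ZNF692 and ZNF276 are known as proteins that cereblon can destroy under thalidomide analogues, which the RNA does not measure. They are the 2 of 4 measured genes of this kind that met the level rule. ZNF692 fell by 0.55 in MDA-MB-231 cells and 0.35 in MDA-MB-468 cells with BETd-246 and by 0.59, 0.94 and 0.51 with BETi-211. The BETd-246 call in MDA-MB-468 was lost without either BETd-246 library (adjusted p = 0.143 and 0.0713) or the second DMSO library (0.0745), with DMSO alone as control (0.41), and under median-of-ratios scaling (0.186). Quantile scaling ended the BETd-246 calls of ZNF692 in both lines (adjusted p = 0.113 and 0.536), and DMSO alone as control its BETi-211 call in MDA-MB-468 (0.0871). ZNF276 fell by 0.38, 0.48 and 0.61 with BETd-246, and the calls in MDA-MB-157 cells and MDA-MB-231 cells were lost without the first BETd-246 library of the line (adjusted p = 0.156 and 0.0515) and under quantile scaling (0.101 and 0.232). Its exons share 2304 bases with those of FANCA and VPS9D1.

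The controls were compared with each other to see how far thalidomide alone moved these genes. With limma 0 ZNF genes were called in any line, against 0.184%, 0% and 0% of all genes in the 3 lines, and 42, 13 and 50 ZNF genes had an unadjusted p below 0.05, against 14.8%, 5.43% and 14% of all genes. Without the second thalidomide library of MDA-MB-231 cells, 12.93% of the ZNF genes were called in that line, and without the first DMSO library of MDA-MB-157 cells, 7.483% in that one. Over the mean of the lines 2 fell and 2 rose, against 1.58% of all genes called either way. The 4 genes were ZNF260 at -0.14, ZNF271P at -0.16, ZNF646 at 0.15 and ZNF692 at 0.35, of which all but ZNF692 are named after their values were seen. ZNF692 was at 9.72 and 10.8 FPKM with thalidomide and 7.64 and 7.19 with DMSO in MDA-MB-157 cells, 9.31 and 9.08 against 8.22 and 7.18 in MDA-MB-231 cells, and 9.89 and 16.5 against 8.86 and 10.1 in MDA-MB-468 cells. Thalidomide libraries were higher without overlap in the first pair of lines and overlapped with DMSO in MDA-MB-468 (adjusted p = 0.0487 over the mean). With a replicate block none of the 4 passed the test (limma adjusted p = 0.0611 to 0.0642).

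Whether the lines differed in their response was tested with a moderated F test over the line effects. The BETd-246 change differed between lines for 145 ZNF genes, against 19.6% of all genes, and the BETi-211 change for 148, against 30.8%. These were 49.3% and 50.3% of the better expressed ZNF genes. For ZNF genes below 4 FPKM the shares were 51.9% and 57.1%, and for ZBTB genes 42.9% and 68.6%. For ZSCAN and ZKSCAN genes they were 47.6% and 66.7%, and for ZFP genes 43.75% and 56.25%. Differences between lines were thus not particular to the better expressed ZNF genes. ZNF595, a KRAB gene near the start of chromosome 4, was at 12.4 and 13.04 FPKM with BETd-246 in MDA-MB-157, 15.4 and 16.7 with thalidomide and 15.6 and 15.3 with DMSO. In MDA-MB-468 it was at 1.10 and 1.16 FPKM with BETd-246, 3.26 and 3.60 with thalidomide and 4.04 and 3.85 with DMSO. Its log2 changes were -0.29, -1.30 and -1.14 in the 3 lines (F test, limma adjusted p = 6.04e-08).

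ZNF526 changed by -0.97, -1.73 and -1.71 in the 3 lines (adjusted p = 1.22e-07), from control means of 1.90, 5.10 and 5.60 FPKM. The smaller value stands in the line with the lowest control level, and the scale understates the change of low genes. ZNF45 had the smallest adjusted p, which rests on its being listed at 0 in MDA-MB-157 cells, and changed by -1.22 in MDA-MB-231 cells and -1.10 in MDA-MB-468 cells. ZNF165 changed by -0.99, -0.66 and -1.42 (adjusted p = 7.47e-06), and its control means differ likewise between lines.

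The ZNF genes were set beside the zinc finger genes most like them. Of the 154 ZNF genes below 4 FPKM, 131, 124 and 133 fell with BETd-246 in the 3 lines. The shares of all genes that fell were 32.4%, 33.3% and 33.7%. Over the mean of the lines all 35 ZBTB genes, 18 of 21 ZSCAN and ZKSCAN genes and 15 of 16 ZFP genes fell. Of all genes 42.2% fell over that mean. The fall with BETd-246 was thus not particular to the better expressed ZNF genes. The lower ZNF genes and these families share the control libraries with the better expressed ZNF genes and were counted after their values were seen.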

How the data were processed

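RNA depleted of ribosomal RNA, with an RNA integrity number of 8 or more, was sequenced from 24 libraries, per the labels' protocols. The deposited table holds 1 FPKM value per gene and library for 14114 genes; the unit was inferred from the values, and no source used here gives the program or annotation behind it. The submitters' processing notes name bcl2fastq 2.17.1.14, Bowtie 0.12.8 and the build GRCh38.p5. FPKM carry no read depth, so depth is unknown and no counting interval is given.

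All 24 libraries were fitted with limma 3.58.1 (R 4.3.3) on log2(FPKM + 1), with 1 coefficient per group of line and treatment, a variance trend and Benjamini-Hochberg adjustment over all genes for each contrast. Control is the mean of the thalidomide and DMSO coefficients of a line. Tests are two-sided with an adjusted p threshold of 0.05, 12 residual and 3.32 prior degrees of freedom. The steps were tested on simulated data. The kit does not mark strand.

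Members, gene lists and splits were chosen with earlier results of these data known. Genes named are the largest called changes and differences each way, the strongest differences between lines, the highest levels and those of the role lists. Domains, fingers, overlaps and shared 50-base words come from patterns searched in GENCODE version 29 transcripts, and promoters from RefSeq. Alternatives covered the pseudocount, filters, scaling, the variance trend, the control, single lines, the member rule, a replicate block and each library left out. Replicate numbers are shared between groups but no source says that they pair samples.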

Additional observations from a re-analysis of the deposited data

Results flagged for a closer look

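In groups of 4 control libraries, 16 of 161 tested had 1 library far from the others (gap over range above 0.829), where chance flags about 1 in 20. In MDA-MB-231 the first thalidomide library stood apart for ZNF532 (5.42 FPKM), ZNF483 (1.39), ZNF22 (16.8), ZNF91 (12.7) and ZNF703 (9.01), and the second for ZNF428 (12) and ZNF644 (26). The first DMSO library of that line stood apart for ZNF358 (7.54) and the second for ZNF81 (1.23). In MDA-MB-157 the second DMSO library did so for ZNF184 (11.8), ZNF483 (41.5) and ZNF276 (1.07). In MDA-MB-468 the thalidomide libraries did so for ZNF326 (7.51), ZNF692 (16.5) and ZNF276 (8.94), and the second DMSO library for ZNF638 (43.9).

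The BETd-246 change differed between lines, by the moderated F test of limma, for 28 of 54 named genes, against 19.6% of all genes. ZNF45, ZNF595 and ZNF526 were named because of this same test, so their calls were fixed in advance. The named genes also include ZNF429 and ZNF419, which did not meet the level rule. The value for ZNF45 rests on its being listed at 0 in MDA-MB-157 cells. The adjusted p was 2.57e-10 for ZNF45, 6.04e-08 for ZNF595, 1.22e-07 for ZNF526, 5.67e-07 for ZNF627, 1.65e-06 for ZNF436, 1.9e-06 for ZNF274, 7.47e-06 for ZNF165 and 7.87e-06 for ZNF367. It was 0.000586 for ZNF281, 0.00061 for ZNF184, 0.000611 for ZNF532, 0.00137 for ZNF713, 0.00179 for ZNF346, 0.00265 for ZNF217, 0.00281 for ZNF689, 0.00298 for ZNF738, 0.00373 for ZNF622, 0.00457 for ZNF429, 0.00469 for ZNF687 and 0.00659 for ZNF844. It was 0.0105 for ZNF76, 0.0146 for ZNF143, 0.017 for ZNF484, 0.0178 for ZNF12, 0.0201 for ZNF644, 0.0205 for ZNF280C, 0.0442 for ZNF419 and 0.0448 for ZNF302.

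The BETi-211 change differed between lines for 29 of the 54 named genes by the same test, against 30.8% of all genes. ZNF429 and ZNF419 are again counted, and the value for ZNF45 again rests on its being listed at 0 in MDA-MB-157 cells. The limma adjusted p was 3.89e-08 for ZNF45, 9.84e-07 for ZNF436, 1.14e-05 for ZNF713, 1.74e-05 for ZNF367, 3.39e-05 for ZNF165, 0.000116 for ZNF526, 0.000241 for ZNF844, 0.00032 for ZNF429, 0.000565 for ZNF12, 0.000619 for ZNF419, 0.000792 for ZNF274 and 0.000919 for ZNF689. For ZNF703 it was 0.00125, for ZNF148 0.00183, for ZNF532 0.00316, for ZNF281 0.00402, for ZNF592 0.00533, for ZNF595 0.00728 and for ZNF93 0.00733. For ZNF507 it was 0.0147, for ZNF484 0.0153, for ZNF76 0.0175, for ZNF22 0.0227, for ZNF395 0.0351, for ZNF664 0.0359, for ZNF627 0.0387, for ZNF92 0.0444, for ZNF143 0.0447 and for ZNF207 0.0485.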

How the results depend on the processing

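The median change of the ZNF genes was negative with both compounds in every line under each alternative run, and the share called lower stayed within 1.5 times its value. With a replicate block, 85.71%, 92.18% and 86.39% of the ZNF genes were lower with BETd-246 in MDA-MB-157 cells, MDA-MB-231 cells and MDA-MB-468 cells; the block took the thalidomide calls over the mean of the lines to 0 and moved no other count by over 1.5 times. Same-numbered libraries of a line deviated from their group means with correlations of -0.21 to 0.33, so the numbers are not taken to pair samples. Shares called higher with BETd-246 were 6.803%, 4.082% and 9.184% in that order of lines and 7.823% over their mean under quantile scaling, 4.082%, 3.741%, 6.463% and 5.442% under median-of-ratios scaling, and 1.02% in MDA-MB-468 and 0.3401% over the mean under column totals. Column totals, and a limit to genes with no exon overlap and few shared words, were chosen after seeing the data. Among genes with no exon overlap and under 1% of shared words, 4.396% were higher with BETd-246 in MDA-MB-468 and 2.198% were called with thalidomide over the mean. Shares higher with BETi-211 were 25.85% in MDA-MB-157 under quantile scaling, and 9.848% in MDA-MB-231 cells and 12.12% in MDA-MB-468 and over the mean among genes at 8 FPKM or more. BETd-246 was above BETi-211 for 18.71% in MDA-MB-231 cells and 21.43% in MDA-MB-468 under quantile and 18.37% in MDA-MB-231 under median-of-ratios scaling. Thalidomide calls over the mean were 5.442% under quantile and 2.721% under median-of-ratios scaling, 0.3401% with a pseudocount of 0.1 or no variance trend, 2.381% among rows at 2 FPKM or more and 2.273% among genes at 8 FPKM or more; in MDA-MB-157 they were 1.02% under quantile scaling and 0.2457% among genes at 2 FPKM or more. With each library left out, they ranged over 0 to 7.483%, 0 to 12.93%, 0 to 0.3401% and, over the mean, 0 to 16.67%; BETd-246 calls higher in MDA-MB-231 over 0 to 0.3401%; and BETd-246 above BETi-211 over 7.823% to 9.864% in MDA-MB-157 cells and 7.143% to 7.823% in MDA-MB-231. Of 324 comparisons of named genes 233 kept their call, 78 lost or gained it and 13 reversed in at least 1 alternative. Reversed under quantile scaling were, with BETd-246, ZNF76 in MDA-MB-157 (0.16), ZNF738 (0.19), ZNF532 (0.20), ZNF517 (0.0207) and ZNF713 (0.0062) in MDA-MB-231 cells and ZNF598 in MDA-MB-468 (0.19), and with BETi-211 ZNF274 in MDA-MB-157 (0.0076) and ZNF687 in MDA-MB-468 (0.14). Reversed under median-of-ratios scaling with BETd-246 were ZNF76 in MDA-MB-157 cells (0.14) and MDA-MB-231 cells (0.14), ZNF532 (0.0716), ZNF207 (0.0356), ZNF664 (0.19) and ZNF395 (0.0912) in MDA-MB-231 cells, and ZNF207 (0.0582) and ZNF598 (0.17) in MDA-MB-468. The cause was not tested. Shares of all genes with a library left out were not counted.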
